A study of Mus musculus with 30 samples.

Results

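The 10 genes described here encode the Dishevelled proteins (Dvl1, Dvl2, Dvl3), β-catenin (Ctnnb1), the Axin scaffolds (Axin1, Axin2), the TCF factors (Tcf7, Tcf7l1, Tcf7l2) and the Dishevelled inhibitor Nkd1, out of 49089 genes counted. They were taken by symbol as the core of the Wnt pathway downstream of its receptors. RNA of AML12 cells, a mouse hepatocyte line, was sequenced in 30 samples of 8 groups. Of the 10 genes, 8 passed the filter on low counts together with 11368 genes in all, Tcf7l1 was too low to test, and Nkd1 had 0 counts in all 30 samples. Of the 8 tested members, Tcf7l2 had the largest log2 fold change in the comparisons made. Tcf7l2 mRNA was lower with insulin than at basal in Control cells, with a log2 fold change of -0.95 ± 0.12 (SE). In cells with both FoxK genes knocked down the value was 0.06 ± 0.12, and the difference between these insulin effects passed the test. A division of the samples, described below, cannot be told apart from the Control change or from this difference. Ctnnb1 and Dvl3 were called in none of the 13 comparisons.

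Wnt ligands bind Frizzled receptors and LRP co-receptors at the cell surface, and the signal passes inside through Dishevelled. Without a ligand, Axin holds β-catenin in a destruction complex in which it is phosphorylated and then degraded, and with a ligand β-catenin accumulates, enters the nucleus and binds TCF factors on target genes. In the liver the pathway is known for setting the gene expression of hepatocytes around the central vein. FoxK1 and FoxK2, forkhead transcription factors, are known to bind Dishevelled proteins. The data are mRNA counts, so they hold no information on where a protein is or how much of it is phosphorylated.

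Control cells received a non-silencing siRNA, FoxK1 KD and FoxK2 KD cells an siRNA against Foxk1 or Foxk2, and DKD cells (double knockdown) siRNAs against both, in a transient transfection. All cells were serum-starved overnight and then kept without insulin (basal, labelled as time 0) or stimulated with 100 nM insulin for 6 h. The paper describes basal cells as mock-treated or given vehicle for 6 h, which differs from the labelled time. If basal cells were taken at 0 h, insulin cannot be told apart from 6 h more in culture when compared with basal. Each group had 4 samples except Control insulin and DKD insulin, with 3 each. No label says that the samples of a group came from separate experiments, so p-values measure the spread between these samples, which may be technical. Foxk1 was reduced and not absent: it averaged 81.4 ± 10.4 CPM (SD, n = 4) in Control basal and 46.5 ± 3.43 in DKD basal cells. FoxK1 KD cells were at 36.8 ± 6.43 CPM at basal. After insulin Foxk1 was at 53.0 ± 4.46 CPM in Control (n = 3), 30.9 ± 3.11 in FoxK1 KD (n = 4) and 34.2 ± 5.78 in DKD cells (n = 3). In Control cells it was thus lower with insulin (log2 fold change -0.62 ± 0.13 SE, adjusted p = 0.00037, edgeR). DKD cells held 57.1% of the Control Foxk1 level at basal and 64.6% after insulin. Foxk2 averaged 140.2 ± 8.25 CPM in Control basal and 50.2 ± 5.69 in DKD basal cells. FoxK2 KD cells were at 47.3 ± 3.46 CPM at basal and 65.7 ± 3.47 after insulin. Control and DKD cells were at 162.7 ± 5.66 and 64.3 ± 4.61 CPM after insulin. In FoxK1 KD cells Foxk2 was also lower than in Control at basal (log2 fold change -0.26 ± 0.08 SE, adjusted p = 0.0487, edgeR). CPM is the count relative to the library size as adjusted by the TMM method, and levels are given as CPM per kb of exon where genes are compared with each other.

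The total count on genes ran from 2141460 to 5668270 by sample. Hnf4a, a defining hepatocyte transcription factor, averaged 116 to 145 CPM by group, while Alb, the main hepatocyte secretory product, averaged only 6.07 to 20.3 CPM. The summed level of 10 hepatocyte markers ran from 1503 to 2446 CPM by sample. Most of it came from Krt18 (919 to 1388 CPM by group) and Krt8 (512 to 886 CPM). Markers of bile duct cells were high as well, with summed levels of 5 markers from 1339 CPM in FoxK1 KD basal samples to 2825 CPM in FoxK2 KD insulin samples, although Epcam was at 0 counts. Most of that sum came from Spp1 (1007 to 1853 CPM by group) and Krt19 (343 to 575 CPM), while Krt7 averaged 16.9 to 34.0 CPM. The 7 stellate cell and fibroblast markers together stayed at or below 1.39 CPM in every sample, and the 5 endothelial markers at or below 0.55 CPM. Of the 5 macrophage markers Adgre1 had 0 counts, whereas Csf1r had 1045 counts over all samples, with group means from 2.70 to 18.2 CPM. The summed macrophage markers were at 8.22 to 12.9 CPM in Control, 17.7 to 22.1 in FoxK1 KD, 11.1 to 13.4 in FoxK2 KD and 15.7 to 18.0 CPM in DKD basal samples. After insulin they were at 4.09 to 6.33, 10.5 to 13.7, 4.09 to 6.61 and 6.63 to 9.51 CPM in the same order, and their part in the results was not tested. Control basal replicate 1 stood apart from the other Control basal samples. The 12 basal samples of Control, FoxK1 KD and FoxK2 KD cells also stood apart from the other 18, since 52 tested genes were lower and 83 higher in all 12 than in any of the 18, none of them among the 10 genes described here. That division cannot be told apart from the double knockdown at basal, from insulin in Control, FoxK1 KD and FoxK2 KD cells, or from a DKD-minus-Control difference in the insulin effect, in which Control basal alone lies on 1 side of it, but it does not coincide with insulin in DKD cells or with the knockdowns compared after insulin.

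The levels of these transcripts spanned a wide range. Ctnnb1 was by far the most abundant, with a mean of 1044 CPM per kb over the 30 samples, which ranked 12 of 11351 tested genes with a known length. It alone took between 0.472% and 0.634% of all counts of a sample. Axin1 followed with 12.9 CPM per kb, 81.0 times less. Dvl1 had 9.55, Dvl2 7.03, Tcf7 4.88, Tcf7l2 4.62, Dvl3 2.92 and Axin2 2.23 CPM per kb. The order of neighbours was not the same in every group, and Dvl1 and Dvl2 were close in Control basal cells, at 7.61 ± 0.41 and 8.01 ± 1.16 CPM per kb (SD, n = 4). Tcf7l1, a TCF mostly known as a repressor, had 63 counts in all, in 27 of 30 samples, and at most 1.48 CPM. Nkd1, which binds Dishevelled and restrains the pathway, was not detected, and a count of 0 allows up to 0.536 CPM in the deepest and 1.39 CPM in the shallowest sample, covering counting error only. Each of these limits is for 1 sample alone, while Nkd1 had 0 counts in every sample.

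**Figure D1:**
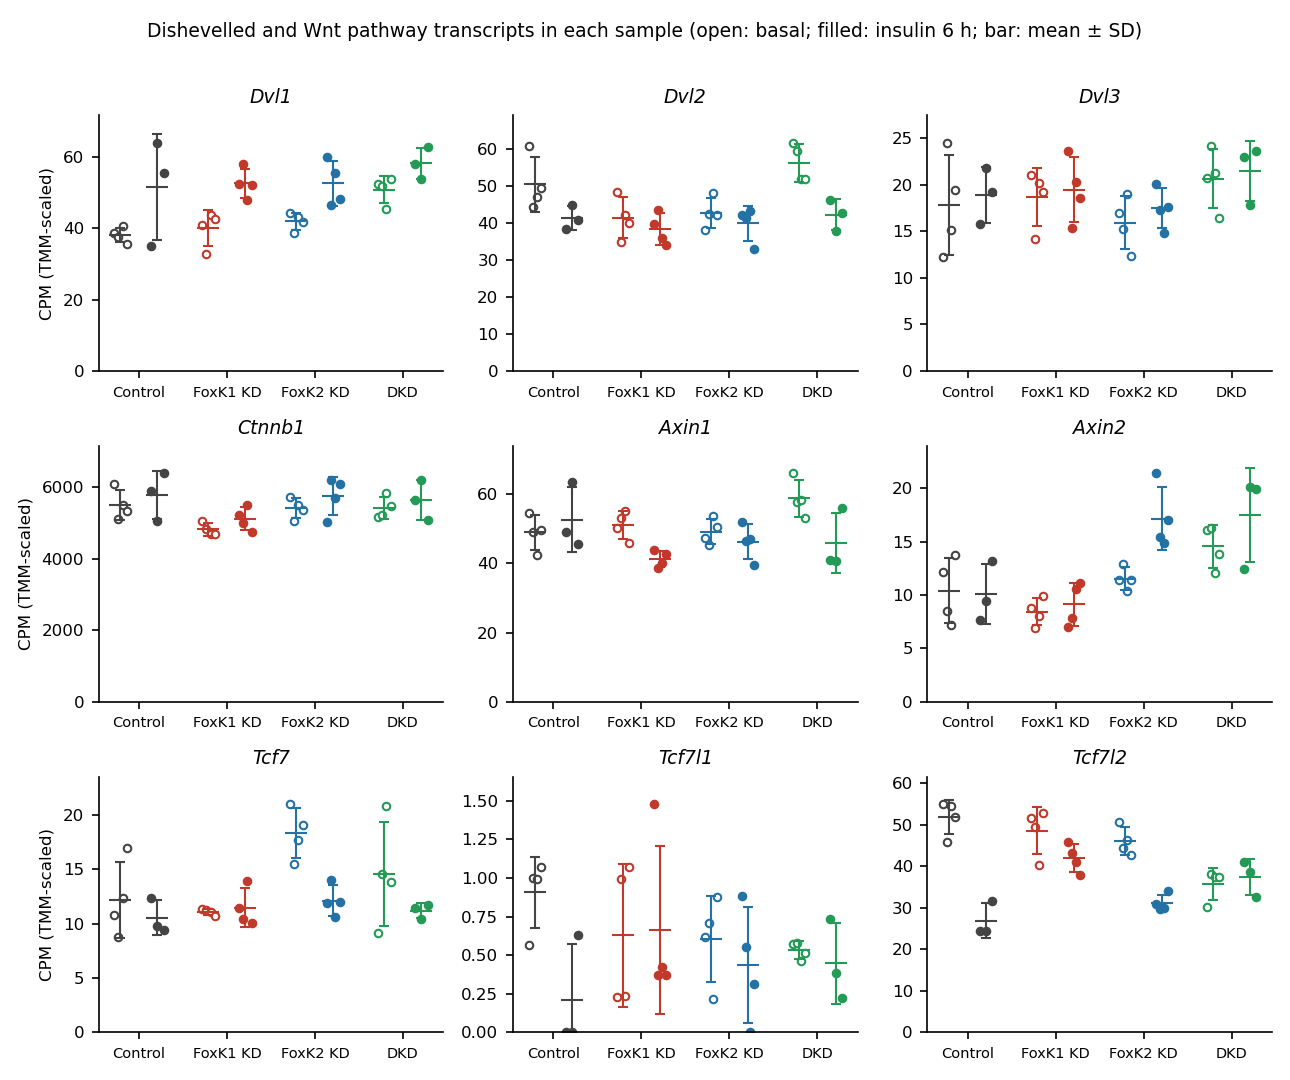
Level of 9 transcripts (Nkd1, with 0 counts in every sample, is not drawn) in CPM (y axis, from 0, own scale for each gene) in each of the 30 samples, grouped by knockdown (x axis). Open points are basal and filled points insulin-stimulated samples, and bars give mean ± SD. Tcf7l2 was lower in all 3 Control insulin samples than in any of the 4 Control basal samples, while the DKD samples overlapped.

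The Dishevelled genes pass the signal from the receptor to the Axin complex. Dvl1 (chromosome 4: 155847402 to 155859303, plus strand, GRCm38) was at 38.6, 37.5, 40.4 and 35.5 CPM in Control basal samples 1 to 4. In DKD basal samples it was at 52.3, 51.8, 45.3 and 53.7 CPM. All 4 DKD samples lay above all 4 Control samples. The log2 fold change was 0.43 ± 0.12 (SE) with an adjusted p of 0.0113 (edgeR quasi-likelihood test, Benjamini-Hochberg over all 11368 genes). In this comparison 21.1% of all tested genes were called at an adjusted p below 0.05, and 2 of the 8 tested members were, Dvl1 upward and Tcf7l2 downward. Dvl1 has 59.3% GC in its longest transcript, and across genes the DKD minus Control change rose with GC content (Spearman's rho 0.466 over genes, which are not independent replicates). With a trend on GC content and length taken out, Dvl1 was at 0.23 with an adjusted p of 0.167.

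After insulin, Dvl1 was at 35.1, 63.8 and 55.3 CPM in Control samples. One of these lay below the lowest basal Control sample and the others above the highest. It was at 52.5, 57.9, 47.8 and 52.0 CPM in FoxK1 KD and at 59.7, 46.5, 55.5 and 48.2 CPM in FoxK2 KD samples after insulin. In both knockdowns all insulin samples were above all basal samples, which reached 43.8 CPM in FoxK1 KD and 44.1 CPM in FoxK2 KD cells. Dvl1 passed the test for insulin in Control (log2 fold change 0.43 ± 0.13 SE, adjusted p = 0.0152, edgeR), FoxK1 KD (0.39 ± 0.13, adjusted p = 0.0173) and FoxK2 KD cells (0.33 ± 0.12, adjusted p = 0.0361). In DKD cells, which started from a higher basal level, the values after insulin were 57.8, 53.8 and 62.6 CPM and the change was 0.19 ± 0.13 with an adjusted p of 0.334. The insulin effect in DKD minus that in Control cells was -0.24 ± 0.18 with an adjusted p of 0.607, so the test did not separate them. In Control cells the call was lost without insulin replicate 2 (0.25, adjusted p = 0.21) and without insulin replicate 3 (0.37, adjusted p = 0.0758). With the GC and length trend taken out, the calls were lost in FoxK1 KD (0.20, adjusted p = 0.205) and FoxK2 KD cells (0.20, adjusted p = 0.169). In FoxK2 KD cells 8 of 16 alternative fits did not call Dvl1, among them 5 that left out a sample (adjusted p up to 0.148), and in FoxK1 KD cells the call was also lost without basal replicate 2 (0.30, adjusted p = 0.0827) and without insulin replicate 2 (0.33, adjusted p = 0.0736). In Control cells it was lost as well when only the groups compared were fitted (0.44, adjusted p = 0.14).

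Dvl2 (chromosome 11: 70000595 to 70012301, plus strand) moved the other way with insulin. It was at 61.7, 59.6, 51.8 and 51.9 CPM in DKD basal samples and at 46.3, 37.9 and 42.7 CPM in DKD insulin samples. The groups did not overlap, and the log2 fold change was -0.41 ± 0.12 (SE) with an adjusted p of 0.0204 (edgeR). In Control cells Dvl2 was at 61.0, 44.3, 47.1 and 49.5 CPM at basal and at 38.5, 44.9 and 40.9 CPM after insulin. Here the groups overlapped, and the change of -0.28 ± 0.12 did not pass the test (adjusted p = 0.0869), although it did with the GC and length trend taken out (-0.33, adjusted p = 0.0142). The highest Control basal value was that of replicate 1, and without it the change was -0.19 with an adjusted p of 0.266. The values for insulin were -0.12 ± 0.12 in FoxK1 KD and -0.10 ± 0.11 in FoxK2 KD cells, neither of which passed, although FoxK1 KD did with the GC and length trend taken out (-0.28, adjusted p = 0.0368). In DKD cells the call was lost without any of basal replicates 1 and 2 or insulin replicates 2 and 3, with adjusted p-values up to 0.103. Dvl2 overlaps Acadvl on the opposite strand, which had 6244 counts over all samples against 4852 for Dvl2, and since the strand setting of the counting is not given in the sources used here, reads from the overlap cannot be assigned with certainty.

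Dvl3 (chromosome 16: 20516982 to 20534010, plus strand) was the lowest of the Dishevelled genes and varied most within groups. It ranged from 12.2 to 24.5 CPM among Control basal samples alone, with a mean of 17.8 ± 5.36 CPM (SD, n = 4). Group means lay between 15.9 CPM in FoxK2 KD basal and 21.5 CPM in DKD insulin cells. No comparison of Dvl3 passed the test, and fold changes on the log2 scale ran from -0.18 for FoxK2 KD against Control at basal to 0.21 for DKD against Control after insulin.

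As a share of the summed CPM per kb of the Dishevelled genes, Dvl1 made up 41.4% ± 2.56 (SD, n = 4) in Control basal cells and Dvl2 43.4% ± 4.99. In every insulin group Dvl1 was the largest part, lowest in Control at 51.2% ± 5.42 (n = 3) and highest in DKD cells at 53.6% ± 1.95 (n = 3), and Dvl2 was between 31.0% and 33.8%. At basal the knockdowns lay between, with Dvl1 at 45.8% ± 2.17 in FoxK1 KD, 47.5% ± 2.66 in FoxK2 KD and 45.6% ± 2.87 in DKD cells. Dvl3 stayed between 14.0% and 16.6% in all groups. These shares describe the same counts as the tests above and were not tested on their own.

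**Figure D2:**
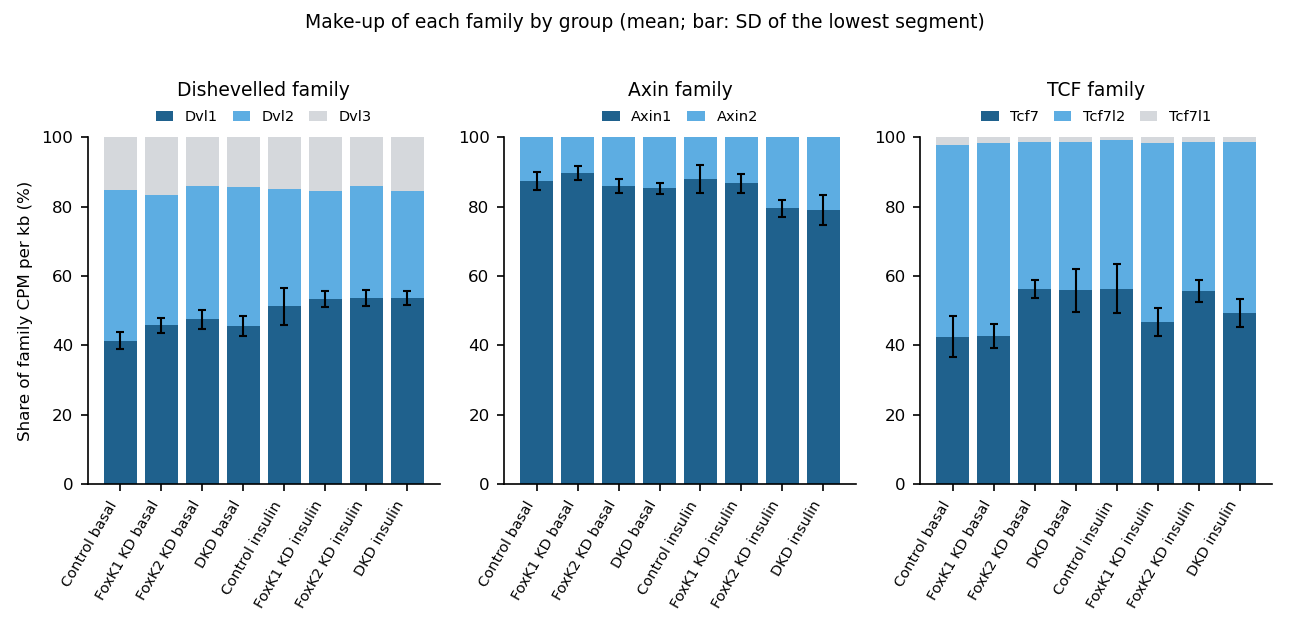
Share of each member in its family's summed CPM per kb (y axis, percent, from 0 to 100) by group (x axis), as stacked means over the 3 or 4 samples. The error bar is the SD of the lowest segment, and Dvl1 was at 41.4% in Control basal cells and above 51% in each insulin group.

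Ctnnb1 (chromosome 9: 120929216 to 120960507, plus strand) encodes β-catenin, the effector whose protein the pathway stabilizes. Its mRNA varied least of all the members, between 4682 and 6387 CPM over the 30 samples. FoxK1 KD basal samples were at 5054, 4841, 4707 and 4682 CPM, and Control basal samples at 6098, 5121, 5517 and 5328 CPM. All 4 FoxK1 KD samples were below all 4 Control samples, but the log2 fold change of -0.19 ± 0.08 (SE) did not pass the test (adjusted p = 0.131, edgeR). After insulin FoxK1 KD was again lower than Control, by a value of -0.18 ± 0.09 with an adjusted p of 0.294. In the other comparisons the log2 fold changes of Ctnnb1 lay between -0.04 and 0.09, with standard errors of at most 0.12.

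Axin1 (chromosome 17: 26138688 to 26195811, plus strand) and Axin2 (chromosome 11: 108920349 to 108950783, plus strand) scaffold the destruction complex, and Axin2 is itself a widely used Wnt target gene that acts as feedback. Axin1 was at 50.2, 53.1, 55.3 and 46.0 CPM in FoxK1 KD basal samples and at 44.0, 38.8, 40.2 and 42.7 CPM after insulin. The groups did not overlap, and Axin1 fell by 0.30 on the log2 scale (SE 0.12, adjusted p = 0.0475, edgeR). In DKD cells it was at 66.0, 57.9, 58.3 and 53.1 CPM at basal and at 41.0, 40.6 and 55.9 CPM after insulin, a decrease by 0.35 with a standard error of 0.12 and an adjusted p of 0.0487. Both were just below the threshold, and 11 of 16 alternative fits of the first and 9 of 15 of the second did not call it. DESeq2 gave adjusted p-values of 0.052 and 0.0511. With the GC and length trend taken out the FoxK1 KD value was larger (-0.50, adjusted p = 0.000545), the DKD value was not called (-0.28, adjusted p = 0.0709), and Axin1 was called lower in FoxK1 KD than in Control cells after insulin (-0.40, adjusted p = 0.0374), where the main value was -0.34 with an adjusted p of 0.132. In Control cells the value for insulin was 0.10 ± 0.12, and the insulin effects did not differ from it by the test in FoxK1 KD (-0.41 ± 0.17, adjusted p = 0.312) or DKD cells (-0.45 ± 0.17, adjusted p = 0.188). Without Control basal replicate 1, Axin1 was higher in DKD than in Control cells at basal (0.31, adjusted p = 0.0379), while with all samples the adjusted p was 0.086.

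Axin2 had few counts, from 19 to 97 per sample. In FoxK2 KD cells it was at 11.4, 12.9, 10.4 and 11.4 CPM at basal and at 21.4, 15.4, 14.9 and 17.01 CPM after insulin. All insulin samples lay above all basal samples, and the log2 fold change was 0.59 ± 0.19 (SE, adjusted p = 0.0171, edgeR). Control cells were at 12.2, 8.50, 7.19 and 13.7 CPM at basal and at 7.65, 9.48 and 13.2 CPM after insulin. These overlapped throughout, with a change of -0.08 ± 0.23. The difference between the insulin effects, FoxK2 KD minus Control, was 0.66 ± 0.29 and did not pass (adjusted p = 0.883). In FoxK2 KD cells the call was lost without insulin replicate 1 (0.45, adjusted p = 0.106) and without basal replicate 3 (0.53, adjusted p = 0.054).

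Compared with Control after insulin, Axin2 was 0.79 ± 0.22 (log2, SE) higher in FoxK2 KD and 0.79 ± 0.23 higher in DKD cells, and the adjusted p-values of 0.32 and 0.0802 did not pass. DKD insulin samples were at 12.4, 20.1 and 19.9 CPM. The lowest of these lay within the Control insulin range and the others above it, and without it the value was 0.98 with an adjusted p of 0.0348. At basal DKD cells were at 16.1, 16.3, 12.03 and 13.9 CPM, a value of 0.48 ± 0.20 against Control with an adjusted p of 0.0781. Without Control basal replicate 4 it was 0.68 with an adjusted p of 0.0237. FoxK1 KD cells were at 8.41 ± 1.26 CPM (SD, n = 4) at basal and 9.14 ± 2.02 CPM after insulin, and none of their comparisons of Axin2 passed. As a share of Axin CPM per kb, Axin2 was 11.98% ± 4.15 (SD, n = 3) in Control insulin, 20.5% ± 2.47 (n = 4) in FoxK2 KD insulin and 20.96% ± 4.21 (n = 3) in DKD insulin cells.

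The TCF factors bind β-catenin and the DNA of target genes. Tcf7l2 lies on chromosome 19 from 55741820 to 55933654 on the plus strand, and Tcf7 on chromosome 11 from 52252371 to 52283014 on the minus strand. A promoter of each is shown because Tcf7l2 carried the largest log2 fold change and because 1 of the 2 promoters of each holds a forkhead core motif. The promoter of Axin2 is shown as that of a member without one. The Tcf7 stretch runs past its start site, while those of Tcf7l2 and Axin2 end before theirs. The sequences are RefSeq's for GRCm38.p6 and each stretch is 250 bases, read 5′ to 3′ on the gene's strand, with capitals at the match to TGTTTA or, for Tcf7, to the longer GTAAACA.
Tcf7l2 promoter, chr19:55741560-55741809, plus strand: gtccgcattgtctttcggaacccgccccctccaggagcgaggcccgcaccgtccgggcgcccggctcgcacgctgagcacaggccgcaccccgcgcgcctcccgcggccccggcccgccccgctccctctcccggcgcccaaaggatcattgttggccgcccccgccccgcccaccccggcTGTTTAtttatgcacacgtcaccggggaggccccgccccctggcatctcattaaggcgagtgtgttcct
Tcf7 promoter, chr11:52282576-52282825, minus strand: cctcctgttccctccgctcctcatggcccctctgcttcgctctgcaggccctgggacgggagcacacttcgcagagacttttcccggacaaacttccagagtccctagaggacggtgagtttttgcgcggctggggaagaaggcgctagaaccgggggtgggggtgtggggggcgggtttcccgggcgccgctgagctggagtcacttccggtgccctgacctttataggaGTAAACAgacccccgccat
Axin2 promoter, chr11:108920099-108920348, plus strand: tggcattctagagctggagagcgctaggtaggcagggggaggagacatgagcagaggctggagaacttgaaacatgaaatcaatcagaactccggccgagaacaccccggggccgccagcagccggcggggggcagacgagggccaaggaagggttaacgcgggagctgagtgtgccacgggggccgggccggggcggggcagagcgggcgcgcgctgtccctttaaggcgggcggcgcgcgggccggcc
Both strands were searched for 3 motifs. The first was the forkhead core TGTTTA, which reads as TAAACA on the opposite strand. The second was the longer forkhead motif TGTTTAC, which contains the first and reads as GTAAACA on the opposite strand. The third was CTTTGAT, a core bound by TCF factors, which reads as ATCAAAG on the opposite strand. Each window ran from 250 bases before to 50 after a start site, and 12 such windows were found for 9 of the 10 genes, with none for Axin1. In Tcf7l2 the match to TGTTTA begins 69 bases before a start site (position -69), and in Tcf7 the match begins at position 2 after one. No other window of the members held any of these motifs. Of all 32851 promoters, 13.4% held TGTTTA, 3.65% TGTTTAC and 3.73% CTTTGAT. A match is a description of these letters and no evidence of binding.

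Tcf7l2 in Control cells was at 55.0, 46.0, 54.6 and 52.0 CPM at basal. After insulin it was at 24.5, 24.3 and 31.8 CPM. The highest insulin sample lay well below the lowest basal one, and the log2 fold change of -0.95 ± 0.12 (SE) had an adjusted p of 2.85e-07 (edgeR). With each sample left out in turn it lay between -1.08 and -0.88. In this comparison 25.4% of all tested genes were called, and of the 8 tested members only Tcf7l2 (lower) and Dvl1 (higher) were. The summed level of the bile duct cell markers was 1691 to 2153 CPM in Control basal and 2055 to 2587 CPM in Control insulin samples, and in DKD cells 1692 to 1967 CPM at basal and 2064 to 2718 CPM after insulin, and its part in the results was not tested. In such bulk samples, fewer cells of a type and less RNA per cell cannot be told apart.

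In FoxK2 KD cells Tcf7l2 moved in the same direction with a smaller value. They were at 50.6, 44.5, 46.5 and 42.9 CPM at basal and at 30.9, 29.7, 30.03 and 34.0 CPM after insulin, without overlap, and the log2 fold change was -0.56 ± 0.11 with an adjusted p of 0.000156 (edgeR). FoxK1 KD cells were at 51.6, 49.5, 40.5 and 53.0 CPM at basal and at 45.8, 43.3, 41.1 and 37.9 CPM after insulin. These groups overlapped, and the change of -0.21 ± 0.11 did not pass (adjusted p = 0.142), although it did without FoxK1 KD basal replicate 3 (-0.30, adjusted p = 0.0396). DKD cells were already low at basal, at 30.1, 38.1, 37.5 and 37.5 CPM, and were at 41.0, 38.7 and 32.7 CPM after insulin. The DKD groups overlapped, with a change of 0.06 ± 0.12 (adjusted p = 0.778).

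The insulin effect on Tcf7l2 in DKD minus that in Control cells was 1.01 ± 0.17 on the log2 scale (SE, adjusted p = 0.000962, edgeR). It was called in all 22 alternative fits that gave it, with values from 0.92 to 1.14, including the fit with the GC and length trend taken out. No fit separates it from the division of the samples described above, since of its 4 groups Control basal alone belongs to the 12 samples. For this difference 1.54% of all tested genes were called, and Tcf7l2 was the only one of the 8 tested members. For FoxK1 KD minus Control the difference was 0.74 ± 0.16 with an adjusted p of 0.0856, and for FoxK2 KD minus Control 0.39 ± 0.16 with an adjusted p of 0.883. In these 2 tests edgeR called 0 genes of all 11368, with 13.4% and 5.5% of genes at an unadjusted p below 0.05, and 2 of the 8 members were below it in each. DESeq2 and limma-voom called 0 members in both as well. The 3 differences share the Control samples.

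The DKD difference has a part at basal and a part after insulin. At basal Tcf7l2 was lower in DKD than in Control cells, with a log2 fold change of -0.54 ± 0.11 (SE, adjusted p = 0.000468, edgeR) and all 4 DKD samples below all 4 Control samples. Without Control basal replicate 1 it was -0.52 with an adjusted p of 0.000712. After insulin DKD cells were higher than Control, by a value of 0.48 ± 0.13 that did not pass the test (adjusted p = 0.0641) but did with the GC and length trend taken out (0.53, adjusted p = 0.0299) and without Control insulin replicate 3 (0.60, adjusted p = 0.0443), and all 3 DKD samples lay above all 3 Control samples. FoxK1 KD cells after insulin were also higher than Control (0.65 ± 0.13, adjusted p = 0.00197), without overlap, in a comparison in which 3.59% of all tested genes were called. At basal FoxK1 KD and FoxK2 KD cells differed from Control by -0.09 ± 0.10 and -0.17 ± 0.10, neither of which passed.

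**Figure D3:**
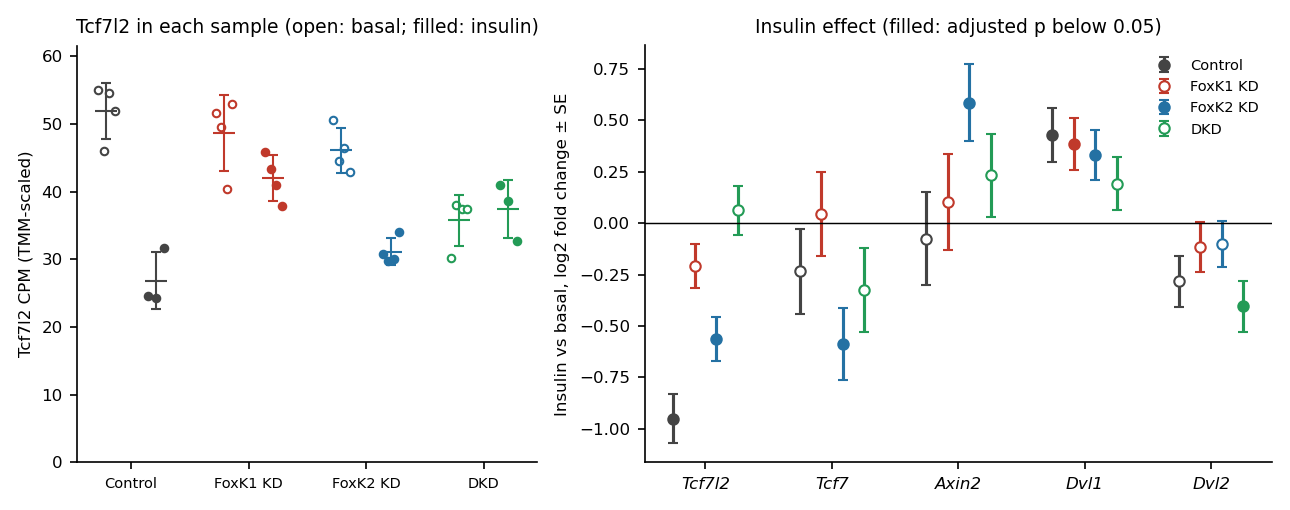
Left, Tcf7l2 in CPM (y axis, from 0) in each sample, open for basal and filled for insulin, with mean ± SD by knockdown (x axis). Right, log2 fold change of insulin against basal ± SE (y axis) for 5 members (x axis) in each knockdown and in Control cells (colours), filled where the adjusted p was below 0.05. The Tcf7l2 value runs from -0.95 in Control to 0.06 in DKD cells.

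Tcf7, which is better known from T cells, was a low transcript with 27 to 95 counts per sample. In FoxK2 KD cells it was at 20.99, 15.5, 17.7 and 19.1 CPM at basal and at 11.9, 14.0, 10.6 and 11.97 CPM after insulin. The groups did not overlap, and Tcf7 fell by 0.59 on the log2 scale (SE 0.17, adjusted p = 0.0112, edgeR). At basal the FoxK2 KD samples were mostly above the Control samples, which were at 10.8, 8.75, 12.4 and 16.96 CPM, with a value of 0.55 ± 0.17 that did not pass (adjusted p = 0.154) except without Control basal replicate 4 (0.78, adjusted p = 0.0242). For insulin the values were -0.23 ± 0.21 (Control), 0.04 ± 0.20 (FoxK1 KD) and -0.32 ± 0.21 (DKD), and none of these passed. As a share of TCF CPM per kb, Tcf7l2 was above Tcf7 in Control basal cells (55.3% ± 5.99 against 42.5% ± 6.00, SD, n = 4) and below it in Control insulin cells (43.0% ± 5.96 against 56.3% ± 7.10, n = 3).

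Insulin in FoxK2 KD cells called 4 of 8 members (Dvl1, Axin2, Tcf7 and Tcf7l2) against 28.1% of all tested genes, insulin in FoxK1 KD cells 2 of 8 (Dvl1 and Axin1) against 31.6%, and insulin in DKD cells 2 of 8 (Dvl2 and Axin1) against 16.3%. FoxK1 KD against Control at basal called 0 of 8 by edgeR, where 8.09% of all tested genes were called, and 2 members had an unadjusted p below 0.05 (23.5% of all tested genes). FoxK2 KD against Control called 0 of 8 at basal, with 0.378% of all tested genes called and 2 members at an unadjusted p below 0.05 (11.2%). After insulin FoxK2 KD called 0 of 8 (0.0264% of all tested genes, with 1 member and 6.03% of genes at an unadjusted p below 0.05) and DKD 0 of 8 (1.21%, with 2 members and 12.7% of genes). DESeq2 and limma-voom also called 0 members in these 4 comparisons. After insulin, FoxK1 KD against Control called 1 of 8, which was Tcf7l2. At an adjusted p below 0.25, edgeR called 2 members for FoxK1 KD (26.6% of all tested genes), 1 for FoxK2 KD (3.59%) and 4 for DKD (43.6%) at basal, 2 for FoxK1 KD (15.1%) and 2 for DKD (6.66%) after insulin, 1 for the FoxK1 KD difference in insulin effect (3.4%) and 2 for the DKD difference (9.88%). The knockdown comparisons share their Control samples, at basal and after insulin. The median log2 fold change of the 8 members lay between -0.13 for FoxK1 KD at basal and 0.18 for DKD at basal, where the medians over all tested genes were -0.01 and -0.00056.

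**Figure D4:**
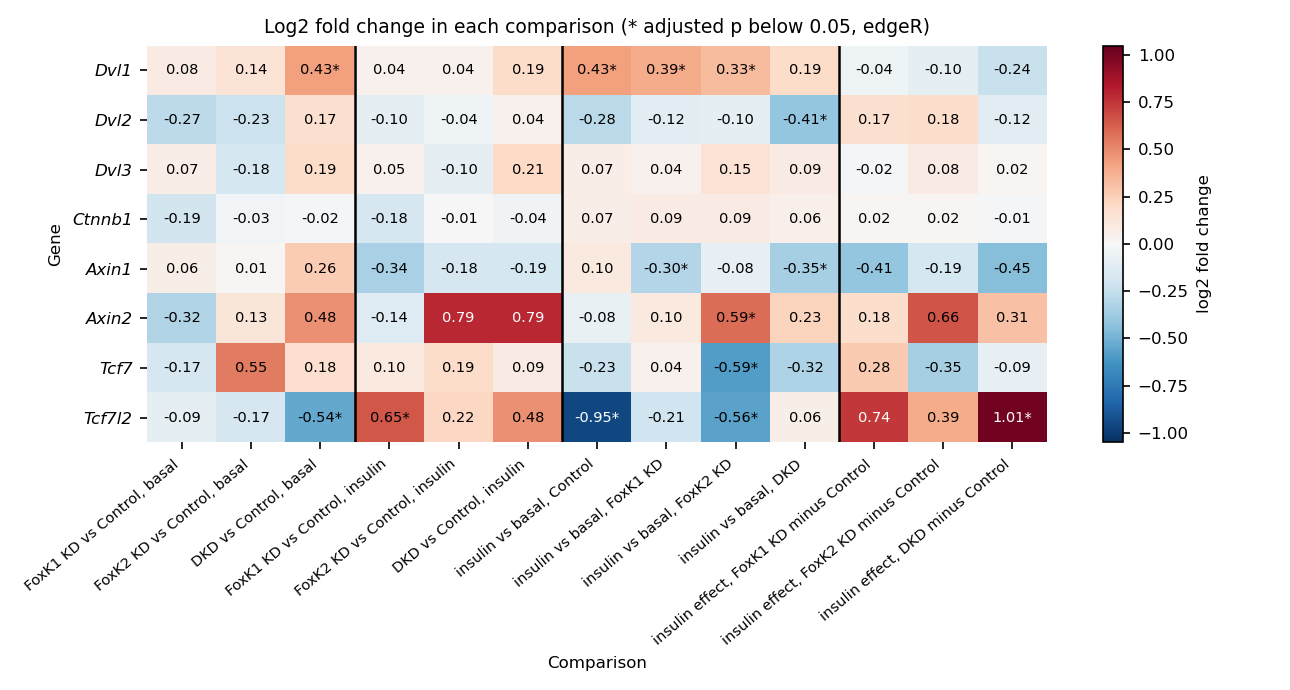
Log2 fold change (colour, red higher and blue lower, with the value printed) of the 8 tested members (y axis) in the 13 comparisons (x axis). An asterisk marks an adjusted p below 0.05. Tcf7l2 carries 5 of the 14 asterisks, and Ctnnb1 and Dvl3 none.

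The wider pathway was read from a list of 128 genes in 9 roles, of which 73 passed the filter. All 13 genes of the destruction complex with its kinases and ligases and 16 of 18 nuclear co-factors were tested, but only 5 of 19 Wnt ligands and 1 of 15 inhibitors at the cell surface (secreted inhibitors and Kremen receptors), with 8 ligands and 8 of these inhibitors at 0 counts in all samples. In DKD against Control cells at basal, 12 of the 73 genes were higher and 10 lower, 30.1% against the 21.1% of all tested genes, and the median log2 fold change was 0.05 against -0.00056 over all tested genes. Leaving out 1 sample moved this count of 22 to between 15 and 28, and the other alternatives to between 7 and 37. The share over all tested genes in those fits is not given here, so the 30.1% is not a firm excess. For insulin in Control cells 6 were higher and 10 lower, 21.9% against 25.4% of all tested genes, with a median of -0.08 against -0.01. Leaving out 1 sample moved this count of 16 to between 12 and 20. For insulin in DKD cells 2 were higher and 5 lower, 9.59% against 16.3% of all tested genes, and leaving out 1 sample moved this count of 7 to between 4 and 9.

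Among ligands, 3 of 5 tested rose in DKD cells at basal and none fell, where 21.1% of all tested genes were called in either direction. Wnt9a went from 7.39 ± 1.89 CPM (SD, n = 4) in Control to 14.4 ± 2.27 in DKD cells, with a log2 value of 0.95 ± 0.21 (SE, adjusted p = 0.0013, edgeR). Wnt7a, at 6.12 ± 2.61 in Control and 10.3 ± 1.77 CPM in DKD cells, rose by 0.81 ± 0.26 (adjusted p = 0.0221) and was also higher in FoxK1 KD cells (0.93 ± 0.25, adjusted p = 0.0167). The call of Wnt7a in DKD cells was lost with the GC and length trend taken out (0.65, adjusted p = 0.0695). The ligand with the smallest p for insulin in Control cells was Wnt10a (-0.29 ± 0.15, adjusted p = 0.153), which did not pass. Among receptors, Fzd2, a Frizzled, fell with insulin in Control cells from 30.9 ± 4.90 to 18.4 ± 1.82 CPM (-0.75 ± 0.16, adjusted p = 0.000497), and Lrp6 was lower in DKD cells at basal (-0.24 ± 0.08, adjusted p = 0.0365), a call lost in 10 of 16 alternative fits, among them that with the GC and length trend taken out (adjusted p = 0.126). Rspo3, a secreted protein that protects Frizzled receptors from removal, rose with insulin in Control cells (0.60 ± 0.11, adjusted p = 0.000106), and Rnf43, a ligase that removes them, was higher in DKD cells at basal (0.56 ± 0.12, adjusted p = 0.000705). Rnf43 also averaged more with insulin in Control cells, at 59.0 ± 3.46 CPM (SD, n = 3) against 43.0 ± 7.93 at basal (n = 4).

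The 2 tested genes for ligand processing and the only tested inhibitor at the cell surface, Kremen1, a receptor of secreted Dkk inhibitors, did not pass either of these tests. The values with the smallest p were those of Porcn for DKD at basal (0.11, adjusted p = 0.64), Wls for insulin in Control cells (-0.08, adjusted p = 0.622) and Kremen1 (-0.01 with an adjusted p of 0.974 and -0.24 with an adjusted p of 0.337).

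In the destruction complex, 1 of 13 genes was higher and 3 lower in DKD cells at basal, 30.8% against 21.1% of all tested genes. Apc2, a relative of Apc, went from 4.24 ± 2.33 to 9.85 ± 2.15 CPM (1.08 ± 0.24, adjusted p = 0.00158, edgeR), while Fbxw11, part of the ligase that marks β-catenin for degradation, went from 255.9 ± 28.8 to 195.1 ± 7.72 CPM (-0.39 ± 0.07, adjusted p = 0.000253). For insulin in Control cells 2 of these 13 genes were lower, 15.4% against 25.4% of all tested genes. The smallest p was that of the kinase gene Csnk1e, from 107.3 ± 5.22 to 88.2 ± 9.22 CPM (-0.29, adjusted p = 0.013, edgeR). That call was lost in 5 alternative fits and kept in 10. Of the Dishevelled partners and planar polarity genes, 3 of 12 were higher in DKD cells at basal, 25% against 21.1% of all tested genes. They were Celsr2 (0.80 ± 0.23), Prickle3 (0.80 ± 0.26) and Dact2 (0.62 ± 0.21), all with group means below 20 CPM. None of them was called with the GC and length trend taken out. Without Control basal replicate 1, Dact2 (0.47, adjusted p = 0.0801) and Prickle3 (0.62, adjusted p = 0.0645) were not called either. Dixdc1, which has the same domain by which Dishevelled and Axin bind, fell with insulin in Control cells from 46.0 ± 8.83 to 31.0 ± 1.24 CPM (-0.58 ± 0.13, adjusted p = 0.000984). Of the nuclear co-factors, Hbp1, a repressor of TCF activity, fell with insulin in Control cells (-0.97 ± 0.12, adjusted p = 2.04e-07), and Tle1, a co-repressor, was higher in DKD cells at basal (0.58 ± 0.13, adjusted p = 0.00202). Tle1 also averaged more with insulin in Control cells, at 22.8 ± 1.83 CPM (SD, n = 3) against 16.8 ± 0.67 at basal (n = 4).

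Among the 10 tested target genes, 2 passed the test for a different insulin effect in DKD and Control cells, and these were the only ones of the 73 genes, 2.74% against 1.54% of all tested genes. As for Tcf7l2, Control basal alone among the groups of these differences belongs to the basal samples that stood apart. Ccnd1 (cyclin D1) went from 414 ± 55.5 to 603 ± 24.3 CPM with insulin in Control and from 693 ± 41.6 to 649 ± 41.5 CPM in DKD cells, a difference of -0.63 ± 0.12 (log2, SE, adjusted p = 0.00211, edgeR). Glul (glutamine synthetase, a marker of hepatocytes around the central vein) went from 487 ± 53.0 to 278 ± 23.7 CPM in Control and from 377 ± 22.8 to 329 ± 32.7 CPM in DKD cells, a difference of 0.61 ± 0.13 (adjusted p = 0.0128). As with Tcf7l2, the basal DKD levels of both lay on the side of the Control insulin level, with log2 fold changes against Control basal of 0.74 ± 0.08 for Ccnd1 (adjusted p = 1.82e-08) and -0.37 ± 0.09 for Glul (adjusted p = 0.00243). When the 4 groups compared were fitted alone, neither passed, with adjusted p-values of 0.0768 and 0.0801. Myc, another target gene, fell with insulin in Control cells (-0.62 ± 0.12, adjusted p = 0.000223) and did not differ in its insulin effect by the test in DKD cells (-0.20 ± 0.17, adjusted p = 0.647).

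**Figure D5:**
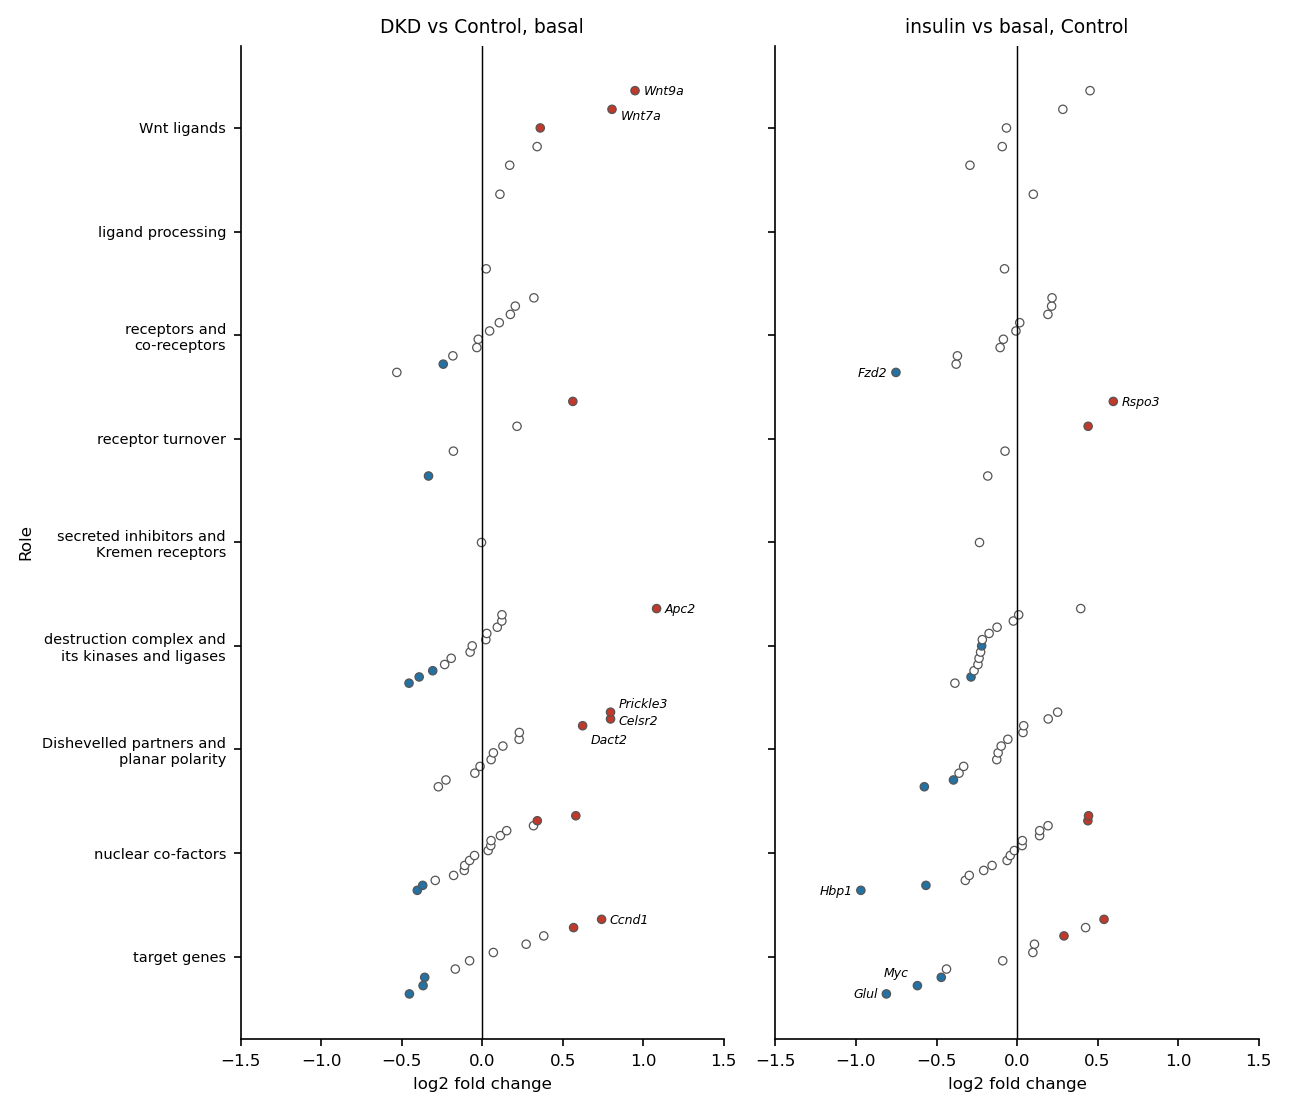
Log2 fold change (x axis) of the 73 tested genes of the Wnt list by role (y axis) in DKD against Control at basal (left) and for insulin in Control cells (right). Filled points had an adjusted p below 0.05, red higher and blue lower, and genes past a 1.5-fold change are named. Points of both directions are seen in most roles, and 22 genes are filled on the left and 16 on the right.

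The genes whose levels ran most like those of a member over the 30 samples were found by Pearson correlation of log2-CPM, as a description that carries library, group and depth alike. For Axin2 they were C3 (r = 0.81), Plxnd1 (0.81) and P2rx4 (0.75). For Dvl1 they were Ikbke (0.89), Fuk (0.83) and Sec14l1 (0.83), for Dvl2 Tpra1 (0.86), Hook2 (0.85) and Eml2 (0.84), and for Dvl3 Zfp646 (0.74), Abcc3 (0.71) and Pkd1 (0.70).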

How the data were processed

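RNA-seq was made from 30 AML12 samples in 8 groups. The authors deposited raw gene counts, not normalized, and the submitters' processing notes name CASAVA 1.8, STAR 2.4.2a, featureCounts and GRCm38.p4. The strand setting and annotation release are not given in the sources used here, and 48435 of 49089 gene IDs were found in GENCODE M21 for positions, lengths and GC content. Genes were filtered with edgeR's filterByExpr by group (11368 kept), scaled by TMM and tested in 1 model of all groups with edgeR 4.0.16 (quasi-likelihood, Benjamini-Hochberg over all tested genes, in R 4.3.3), and called at an adjusted p below 0.05. The scripts were tested on simulated data. Alternatives were DESeq2 1.42.0, limma-voom (limma 3.58.1), a minimum of 1 count in any sample, only the groups compared, a replicate block, a GC content and length trend, an adjusted p of 0.25, a 1.5-fold minimum, and each sample left out. Members were named in all comparisons. Other pathway genes were named when called with at least a 1.5-fold change, or with the smallest p of their role, in DKD against Control at basal or insulin in Control, or when called with such a change in a difference of insulin effects, and further genes by the 3 highest correlations with Axin2 and each Dishevelled gene. The members and lists were chosen with earlier results of these data known. Genes called below 1.5-fold that are named beside these were chosen after their values were seen.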

Additional observations from a re-analysis of the deposited data

Results flagged for a closer look

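Tcf7l2 in DKD basal replicate 1 was at 30.1 CPM, apart from the other 3 samples of its group at 37.5 to 38.1 CPM. Its gap to the nearest of them was 0.92 of the range of the 4 samples. In all, 48 sets of 4 samples, each of 1 gene in 1 group, were examined for such a gap. The cutoff used is passed by chance in about 1 in 20 sets, and only this 1 of the 48 passed it. A single such set among 48 can therefore arise by chance. The insulin effect differed between DKD and Control cells by the test of the difference itself (edgeR, adjusted p-values of 0.000962, 0.0128 and 0.00211) for Tcf7l2 (1.01 on the log2 scale), Glul (0.61) and Ccnd1 (-0.63). Of the 4 groups in these differences Control basal alone belongs to the 12 basal samples that stood apart from the other 18, and the division cannot be told apart from them.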

How the results depend on the processing

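No called value of a named gene turned direction under any alternative run. The number of the 8 tested members called moved by 1.5 times or more as follows, or by less where said. DESeq2 called 1 for insulin in FoxK1 KD and 1 in DKD cells, limma-voom 1 in FoxK1 KD and the replicate block 1 in FoxK1 KD cells. With a minimum of 1 count in any sample, 1 was called for DKD against Control after insulin, 1 for insulin in FoxK1 KD, 1 in DKD cells and 1 for the FoxK1 KD difference in insulin effect, while insulin in FoxK2 KD cells called 3. With only the groups compared, insulin in Control cells called 1. With the GC and length trend taken out, DKD at basal called 1, FoxK1 KD after insulin 2, DKD after insulin 1 and insulin in DKD cells 1, while insulin in Control and in FoxK2 KD cells called 3 each. At an adjusted p of 0.25, 2 were called for FoxK1 KD at basal, 1 for FoxK2 KD at basal, 4 for DKD at basal, 2 for FoxK1 KD after insulin, 2 for DKD after insulin, 1 for the FoxK1 KD difference and 2 for the DKD difference, while insulin in Control and in FoxK1 KD cells called 3 each. With a 1.5-fold minimum, 0 were called for DKD at basal, 1 for insulin in Control, 0 in FoxK1 KD, 2 in FoxK2 KD and 0 in DKD cells. Leaving out each sample gave 0 to 0 for FoxK1 KD at basal, 0 to 1 for FoxK2 KD at basal, 2 to 3 for DKD at basal, 1 to 1, 0 to 0 and 0 to 1 for these after insulin, 1 to 3 for insulin in Control, 0 to 2 in FoxK1 KD, 2 to 4 in FoxK2 KD and 0 to 2 in DKD cells, and 0 to 1, 0 to 0 and 1 to 1 for the differences. Beyond the construction of each alternative, the cause was not tested. Over all groups same-numbered samples did not deviate together (mean correlation -0.0134 over 99 pairs). Of 30 samples, 5 correlated best with their own number. For DKD against Control at basal the mean was 0.061 for same-numbered and -0.020 for other pairs. For insulin in Control cells these means were 0.070 and -0.022. Some comparisons went the other way, such as FoxK2 KD against Control after insulin (-0.109 and 0.036). These values cannot show whether same-numbered samples were handled together. Tcf7l1, with at most 6 counts per sample, and Nkd1, with 0, could not be tested at this depth, and Axin2 had 19 to 97 counts per sample.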
